A study of Mus musculus with 8 samples.

Results

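The DNA-sensing and IFI200 genes described here are Ifi203, Ifi204, Ifi205, Aim2, Tmem173 and Samhd1, measured by RNA sequencing in sorted mouse beta cells after loss of Adar. Adar encodes ADAR1, an editing enzyme that turns adenosines of double-stranded RNA into inosines. The genes were chosen by name from a list of 7 genes, 6 of which matched a row among the 44343 genes of the table. Trex1, the other listed gene, was not analysed here. Mice of the KO group (4 libraries) were Adar floxed/floxed and those of the Het group (4 libraries) Adar floxed/+. Both groups carried MipCreER, in which an insulin promoter drives a Cre that tamoxifen switches on, and the reporter R26R-EYFP. Animals of 1 month were given tamoxifen, 2 doses of 8 mg, and their YFP+ cells were collected after 7 days. Since the number of animals behind a library is not stated, the spread among libraries, which p-values here are set against, may be technical in part. In the main test described below, that spread is taken from genes of like level and not from each gene alone.

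DNA in the cytosol is an alarm signal in mammalian cells. The enzyme cGAS binds it and makes a cyclic dinucleotide that activates the adaptor STING, encoded by Tmem173, which leads to type I interferon. The IFI200 proteins, most of which join a pyrin domain to DNA-binding HIN domains, are encoded by an interferon-inducible gene cluster, and their relative AIM2 assembles an inflammasome on DNA. SAMHD1 breaks down deoxynucleotides and restricts retroviruses, and its loss in humans causes an interferon-driven disease, Aicardi-Goutières syndrome.

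The IFI200 genes lay in a cluster on chromosome 1 (mm10, GENCODE M21). Aim2 spanned 173350879 to 173466040 on the plus strand. Ifi204 (173747293 to 173766943), Ifi203 (173920407 to 173942672) and Ifi205 (174011998 to 174031810) were on the minus strand, and Samhd1 lay on chromosome 2 (157097533 to 157135265, minus strand). The 250 bases before each start were searched on both strands for GAAA followed after any 2 bases by GAAA, a form of the interferon-stimulated response element, and for TTCNNNGAA, a form of the gamma-activated site, in RefSeq promoters of GRCm38.p6. Promoters were matched for 4 of the 6 genes and for 9 of 10 other genes of the cluster. The first motif was found in 2 of the 4 (Ifi203 and Ifi205) and in 7 of the 9, against 3.46% of 27025 genes with a promoter in the same reference. Neighbouring copies share sequence, so these matches are not independent: the stretch of Ifi203 was identical to that of Mndal over 55 bases, and that of Ifi208 to that of Ifi213 over 60. The stretches below begin 20 bases before the match and end at or before the gene's start, and they are shown because the match, in capitals, recurs among copies whose surrounding letters are alike in some pairs and not in others. Identity to the stretch of Ifi205 was 91.2% for Ifi211 and 67.3% for Ifi203.
Ifi203: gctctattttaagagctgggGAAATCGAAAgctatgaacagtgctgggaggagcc
Mndal: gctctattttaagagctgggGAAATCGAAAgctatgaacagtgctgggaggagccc
Ifi205: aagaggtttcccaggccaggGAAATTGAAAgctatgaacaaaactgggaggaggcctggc
Ifi211: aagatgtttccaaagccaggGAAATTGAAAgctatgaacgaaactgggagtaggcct
Ifi207: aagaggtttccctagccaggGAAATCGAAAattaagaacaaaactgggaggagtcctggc
Ifi208: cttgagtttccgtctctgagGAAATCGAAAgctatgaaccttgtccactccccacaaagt
They are at chr1:173942493-173942547, chr1:173880188-173880243, chr1:174031850-174031909, chr1:173913047-173913103 and chr1:173741811-173741870 on the minus strand and, for Ifi208, chr1:173673587-173673646 on the plus strand. Ifi203 has another annotated start in RefSeq, whose promoter did not hold these letters.

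The promoters of Aim2, Samhd1 and Ifi202b did not hold those letters in that window. Those of Samhd1 and Ifi202b each held TTCNNNGAA once, at −235 and −148 from the start. That motif was found in 8.13% of genes with a promoter. Both are shown because they are the 2 genes of the list and the cluster whose KO and Het values did not overlap, with the match in capitals, from chr2:157135097-157135346 and chr1:173982845-173983094 on the minus strand.
Samhd1: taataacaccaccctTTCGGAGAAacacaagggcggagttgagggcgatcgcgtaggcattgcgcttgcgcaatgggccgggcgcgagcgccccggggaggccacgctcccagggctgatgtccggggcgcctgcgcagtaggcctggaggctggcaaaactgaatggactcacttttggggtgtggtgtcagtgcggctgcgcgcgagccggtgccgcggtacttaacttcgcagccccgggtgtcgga
Ifi202b: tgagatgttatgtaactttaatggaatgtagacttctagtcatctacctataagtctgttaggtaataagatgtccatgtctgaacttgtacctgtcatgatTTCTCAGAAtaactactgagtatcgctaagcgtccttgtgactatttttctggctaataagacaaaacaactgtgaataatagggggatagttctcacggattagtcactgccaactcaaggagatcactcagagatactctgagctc
A match is a run of letters and not a measured binding site, and a window without one says nothing of the factor.

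Depth ranged from 5.37 to 15.9 M reads per library, and libraries of the same genotype differed from each other. Genes of olfactory and vomeronasal receptors, which belong to sensory neurons, took 0.0484% and 0.0342% of reads in KO 1 and KO 2 but 0.315% and 0.285% in KO 3 and KO 4, and 0.0838% to 0.236% in the Het libraries. Under the deposited scaling, 7561 genes with a mean of 10 to 25 normalized counts were low and high in the same libraries. Their median, relative to the Het mean on the log2 scale, was −0.57 and −0.72 in KO 1 and KO 2, 0.22 and 0.11 in KO 3 and KO 4, and −0.24 to 0.19 in the Het libraries. Aim2, Tmem173 and Ifi204 have means in that range. The KO libraries also differed in sex make-up. KO 3 and KO 4 had the Y-linked Ddx3y at 1.1 and 0 normalized counts and Het 1 had Xist at 19.2, while KO 1, KO 2 and the other 3 Het libraries held reads of both. KO 3 had 17.4% mitochondrial reads, against 6.90% to 10.4% in the other libraries. Beta-cell markers summed to 227400 to 1370700 normalized counts in KO and 628780 to 1293700 in Het, with 0 of 10 called. Adar itself was not lower in KO, at 4030, 2365, 615 and 1343 normalized counts in KO 1 to KO 4 and 943, 1173, 1187 and 744 in Het 1 to Het 4. The floxed exons were not measured apart from the rest of the gene, so this value does not check the labels.

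Under the main test, 0 of the 5 tested genes were called. This test was limma on log2(normalized count + 1) over the 21498 genes whose mean was 10 or more, with a Benjamini-Hochberg adjusted p under 0.05. Over all genes it called 0.921% higher and 0.0233% lower in KO. At an unadjusted p under 0.05, Samhd1 was higher and Tmem173 lower, where 4.05% of all genes pass higher and 2.7% lower, 6.75% in all. Of the count tests on recovered whole reads, edgeR called 0 of the 5 (0.708% of 23320 genes). DESeq2 called 1, Samhd1 (0.483% of 44333 genes), giving no adjusted p for Ifi204 and Ifi205. The DESeq2 share counts low genes that it gave no adjusted p, so it is not like the shares of the filtered tests. The median log2 fold change of the 5 was 0.28, against 0.05 over all tested genes. The filter shapes this median. Ifi204 passed it through KO (mean 13.9, against 8.35 in Het), and Ifi205, with a lower mean in KO, was left out. With all 6 genes in DESeq2 the median was 0.14, against 0.06 over all genes. TMM scaling moved the median of all genes to −0.12 and that of the 5 to 0.10, and called 0 of them (0.712% of all genes). In bulk libraries, fewer cells that express a gene and less RNA per cell cannot be told apart.

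**Figure D1:**
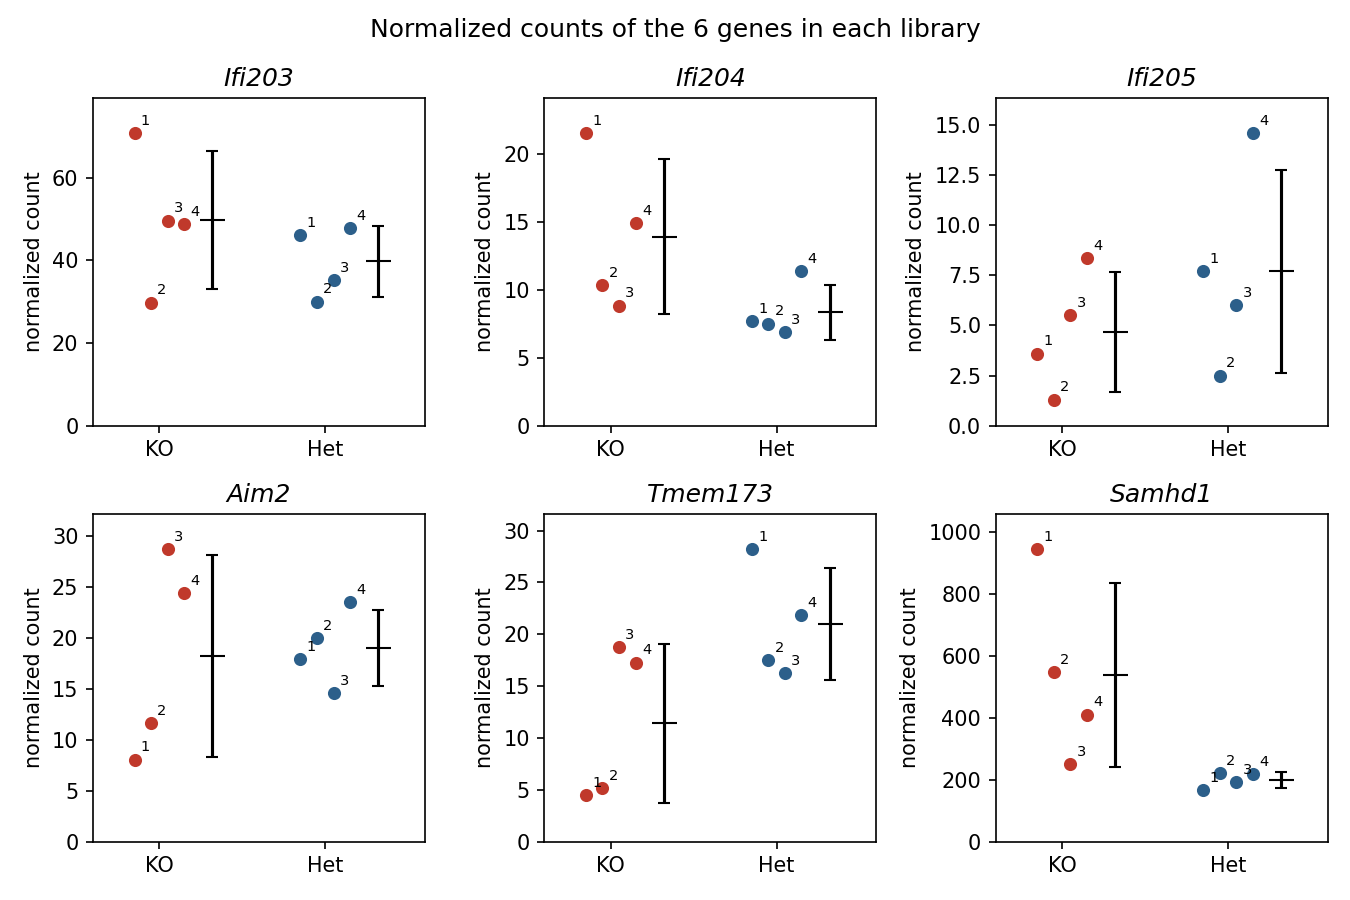
Normalized counts (y axes, linear from 0) of the 6 genes in the 4 KO (red, left) and 4 Het (blue, right) libraries, with the replicate number beside each point and the mean and SD as black bars. Samhd1 is the gene whose 4 KO values (251 to 945) all lie above its 4 Het values (168 to 223), and the groups of the other 5 overlap.

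Samhd1, the deoxynucleotide triphosphohydrolase, was the most abundant of the 6 and the one with the largest log2 fold change. It had 945, 547, 251 and 411 normalized counts in KO 1 to KO 4, against 168, 223, 194 and 219 in Het 1 to Het 4. All 4 KO values lay above all 4 Het values, and KO 3 lay nearest to the Het range. Groups were separated in this direction for 2.19% of all tested genes. The mean was 539 ± 297 in KO and 201 ± 25.4 in Het (SD, n = 4 each), a 2.68-fold ratio of means. On the log2 scale the difference was 1.27 with a standard error of 0.49 (95% interval 0.30 to 2.23). The call depended on the method. limma's adjusted p was 0.410 under the deposited scaling and 0.227 with TMM scaling, where the difference was 1.09 ± 0.35 (SE). The adjusted p was 0.060 with edgeR (log2 fold change 1.08) and 0.049 with DESeq2 (1.42 ± 0.42). With TMM factors from genes with a mean of at least 200 it was 1.02 (adjusted p = 0.026), a setting in which 10.3% of 6697 genes are called. A two-sided exact permutation test over the 8 libraries gave p = 0.0286, the smallest that 70 arrangements allow. The log2 difference was 1.85 for KO 1 and KO 2 alone and 0.69 for KO 3 and KO 4 alone, each set against the 4 Het libraries, positive in both. Those 2 fits call 61.6% and 8.72% of all genes. It was also called with quantile normalization (2.13% of all genes), without KO 3 (1.78%) and in the 5 libraries with Xist and Ddx3y both at 100 normalized counts or more (50.5%), and not with the replicate number as a block (0.87%). Abundant genes as a whole were also highest in KO 1 and KO 2. For genes with a mean of 200 or more, the median level relative to the average library was 0.88, 0.96, −0.77 and −0.56 log2 units in KO 1 to KO 4 and −0.46 to 0.22 in Het. The part of this in the values of Samhd1 was not tested.

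Tmem173, which encodes the adaptor STING, stood at 4.48, 5.18, 18.8 and 17.3 normalized counts in KO 1 to KO 4, against 28.2, 17.5, 16.3 and 21.9 in Het 1 to Het 4. The values of KO 1 and KO 2 lay below all Het values, while those of KO 3 and KO 4 lay within the Het range. These are counts of 137 reads over all 8 libraries. The mean was 11.4 ± 7.64 in KO and 21.0 ± 5.38 in Het (SD, n = 4 each), a log2 difference of −1.03 ± 0.47 (SE; limma adjusted p = 0.617). It was −1.18 with TMM scaling (adjusted p = 0.668) and −0.85 with both edgeR (adjusted p = 0.959) and DESeq2 (adjusted p = 0.632). The exact permutation p was 0.143. KO 1 and KO 2 were also the libraries in which low genes as a whole were lowest, as were the olfactory receptor reads, and the part of this in the values of Tmem173 was not tested. For KO 3 and KO 4 alone the log2 difference was −0.18. For Tmem173, Aim2 and Samhd1 alike, this split of the KO libraries cannot be told apart from the split in sex make-up.

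Aim2, the inflammasome-forming DNA sensor, followed the same order among the KO libraries. It had 8.07, 11.6, 28.7 and 24.4 normalized counts in KO 1 to KO 4, and 17.9, 20, 14.6 and 23.5 in Het 1 to Het 4. KO 1 and KO 2 were thus below every Het library and KO 3 and KO 4 above every one. The means were 18.2 ± 9.90 in KO and 19.0 ± 3.74 in Het (SD, n = 4 each), and the log2 difference was −0.20 with a 95% interval of −1.07 to 0.66 (limma adjusted p = 0.969). Its sign was not stable: without KO 1 it was 0.10, and with quantile normalization 0.07. STING and AIM2 are also made by other cells, macrophages and endothelial cells among them. The 12 listed macrophage markers summed to 246 to 399 normalized counts in KO and 417 to 538 in Het, without overlap. That separation rested on C1qa: the other 11 summed to 174 to 255 in KO and 243 to 292 in Het, which overlap. Of 7 tested, 0 were called higher and 1 lower, C1qa (log2 fold change −1.79 ± 0.43, limma adjusted p = 0.0051), while C1qb and C1qc, which encode the other chains of the same complement protein, stayed at 2.57 to 12.8 in every library. No macrophage marker was at 0 in all 8 libraries, and Aif1 and Tyrobp were at 0 in KO 2. The 8 endothelial markers summed to 136 to 255 in KO and 198 to 313 in Het, with 0 called. B-cell markers summed to 78.9, 76.4, 164 and 179 in KO 1 to KO 4 and 131 to 188 in Het. Those of T and NK cells summed to 151, 77.7, 216 and 190 in KO 1 to KO 4 and 142 to 210 in Het. Dendritic-cell markers summed to 238, 90.6, 214 and 190 in KO 1 to KO 4 and 181 to 215 in Het. In each of these lists 0 were called. The part of these cells in the levels of Tmem173 and Aim2 was not tested.

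**Figure D2:**
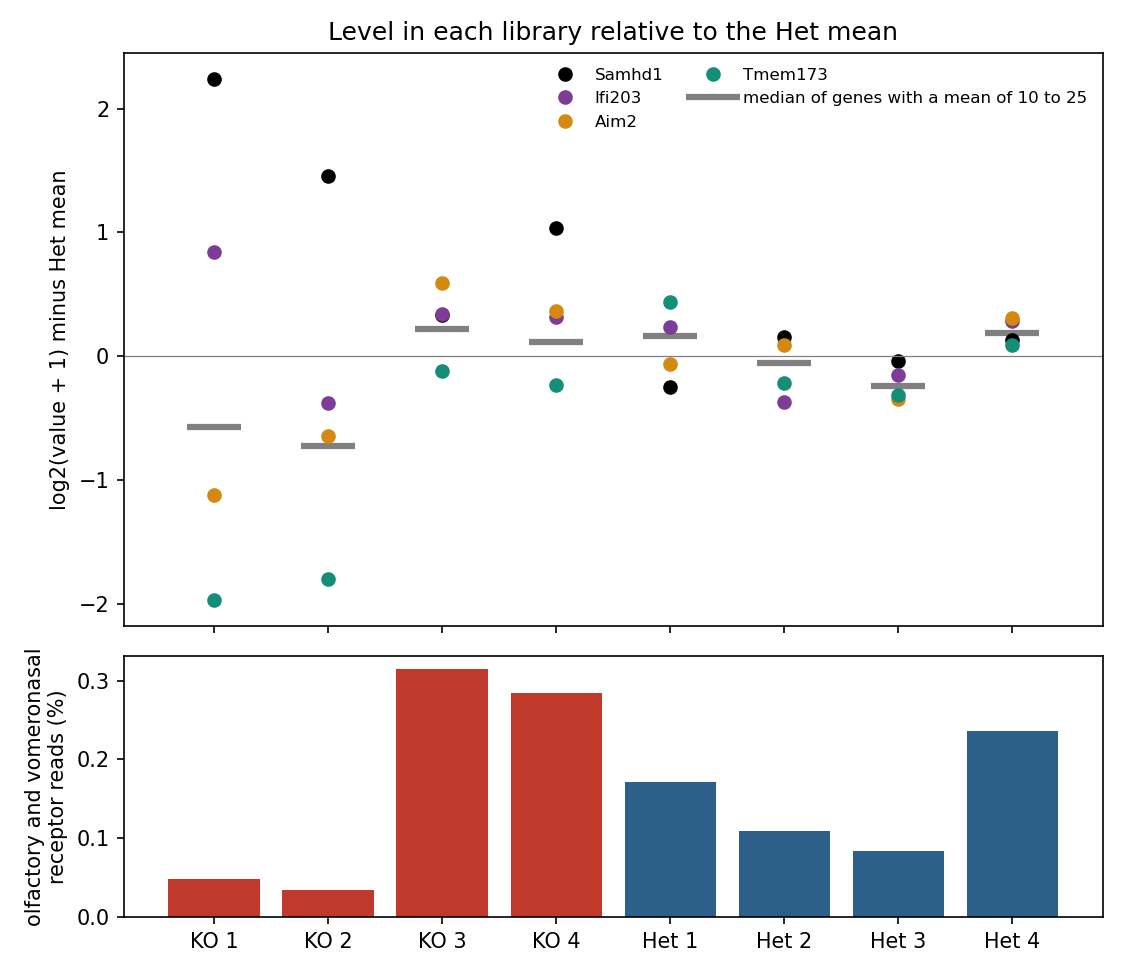
Top, level of 4 genes in each library as log2(normalized count + 1) minus the gene's Het mean, with grey bars for the median of the 7561 genes with a mean of 10 to 25. Bottom, share of reads from olfactory and vomeronasal receptor genes (percent). Tmem173 and Aim2 are lowest in KO 1 and KO 2, where the grey bars (−0.57 and −0.72) and the receptor share (0.0484% and 0.0342%) are lowest too, while Samhd1 is highest there.

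None of the IFI200 genes on the list passed the test. Ifi203 had 70.8, 29.8, 49.6 and 48.8 normalized counts in KO 1 to KO 4 and 46.1, 30, 35.1 and 47.8 in Het 1 to Het 4. KO 1 was highest and KO 2 lowest of all, so the KO values spanned the Het values. The log2 difference was 0.28 ± 0.40 (SE; 95% interval −0.50 to 1.06; limma adjusted p = 0.961). Ifi204, whose protein p204 is the mouse counterpart of the human DNA sensor IFI16, had 21.5, 10.4, 8.82 and 14.9 in KO 1 to KO 4 and 7.69, 7.5, 6.86 and 11.3 in Het 1 to Het 4. Its KO values leaned high, but KO 2 and KO 3 lay within the Het range. The log2 difference of Ifi204 was 0.62 ± 0.52 (SE; 95% interval −0.41 to 1.64; limma adjusted p = 0.916), from 99 reads in all. Ifi205 was under the filter on low values, with 3.59, 1.29, 5.51 and 8.34 in KO 1 to KO 4 and 7.69, 2.5, 6 and 14.6 in Het 1 to Het 4. These were 57 reads in all, and the groups overlapped. Fitted without the filter, its log2 difference was −0.59 ± 0.57 (SE; limma adjusted p = 0.972). The intervals of Ifi203 and Ifi204 include both 0 and a log2 difference of 1, so a change of that size is not excluded. Tests of Ifi205 and its relatives carry a further limit: reads shared between these near-identical copies may have been dropped or split, since the counting mode is not stated. The annotated exons of Ifi203 and Mndal share 37 bases on the same strand.

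Per kilobase of exon, Samhd1 stood apart in both genotypes, at 58.9 ± 32.4 normalized counts per kilobase in KO and 21.9 ± 2.77 in Het (SD, n = 4 each). In KO the order after it was Ifi203 (7.42), Aim2 (5.20), Tmem173 (4.17), Ifi204 (3.90) and Ifi205 (1.1). In Het it was Tmem173 (7.65), Ifi203 (5.93), Aim2 (5.43), Ifi204 (2.34) and Ifi205 (1.84). Neighbours from Ifi203 to Ifi204 in the KO order, from Tmem173 to Aim2 in the Het order, and Ifi204 and Ifi205 in Het had ranges that overlap. Lengths were those of all exons joined. With the longest transcript in their place, Samhd1 stood at 51.1 in Het, and Ifi203 (10.6) passed Tmem173 (9.12).

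**Figure D3:**
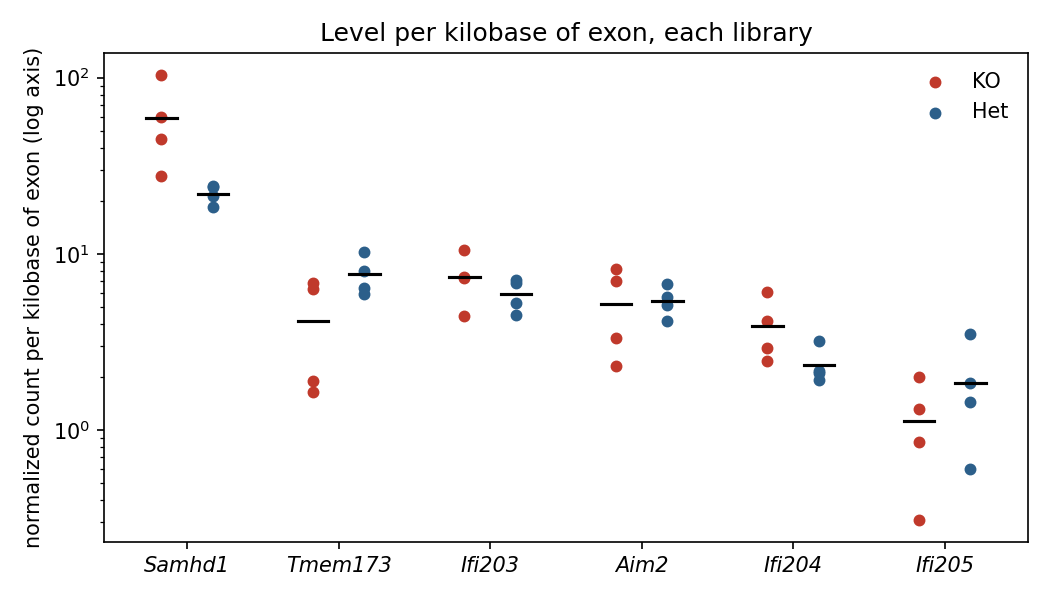
Normalized counts per kilobase of exon (log axis) of the 6 genes in each KO (red, left) and Het (blue, right) library, with black lines at the means. Samhd1 lies above the others in both groups, at means of 58.9 in KO and 21.9 in Het.

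The genes were also set against Samhd1 within each library, as differences of log2(normalized count + 1). Relative to Samhd1, each of the other 5 genes had a lower mean log2 ratio in KO, though none passed the correction. That shared direction was fixed in advance, since Samhd1 has the highest log2 fold change of the list (1.27), and is no separate result. The mean log2 ratio of Tmem173 to Samhd1 was −5.52 ± 1.73 in KO and −3.22 ± 0.48 in Het (SD, n = 4 each), and its 4 KO values lay below its 4 Het values. That difference of −2.30 had an exact permutation p = 0.0286, the smallest possible, and 0.143 after Benjamini-Hochberg adjustment over the 5 ratios. The differences of the others ran from −0.65 for Ifi204 to −1.86 for Ifi205, with the same adjusted value, 0.143 by exact permutation. The added count matters for genes this low. With 8 in place of 1 the difference of Tmem173 was −1.89 (adjusted p = 0.071 by exact permutation). All 5 ratios share the values of Samhd1, and Tmem173 on its own had an exact permutation p of 0.143.

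The genes whose levels across the 8 libraries were nearest to Samhd1, by root mean square difference of Het-centred log2 values, were Tlr3 (0.0991), Pnpt1 (0.172) and Paqr3 (0.173), out of 11064 genes of mean 50 or more. Tlr3, an endosomal receptor for double-stranded RNA, had 273 normalized counts in KO and 98.2 in Het. Pnpt1, a mitochondrial RNA-degrading enzyme, had 706 and 256, and Paqr3 188 and 72.3. None of these genes was called (limma adjusted p = 0.242 for Tlr3, 0.482 for Pnpt1 and 0.259 for Paqr3). Nearest to Tmem173 were Ccdc180 (0.204), Dnah1 (0.274) and Igfn1 (0.286), with log2 fold changes of −0.84, −0.87 and −0.85. Itln1 was nearest to Aim2 (0.0915), Btbd11 to Ifi203 (0.152) and Kit to Ifi204 (0.167).

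Among the 10 other genes of the IFI200 cluster in the table, 6 were tested and 1 was called higher, where 0.921% of all tested genes were. The gene called was Ifi202b. Its protein has HIN domains without a pyrin domain and can block AIM2. It had 67.2, 11.6, 26.5 and 25.6 normalized counts in KO 1 to KO 4, against 11.5, 5, 2.57 and 10.5 in Het 1 to Het 4. The groups did not overlap, but KO 2 lay just above Het 1. Groups were separated in this direction for 2.19% of all tested genes. The log2 fold change was 1.92 ± 0.47 (SE; limma adjusted p = 0.0077), and 2.16 with DESeq2 (adjusted p = 0.030). The call ended with TMM scaling (1.76, adjusted p = 0.225), with edgeR (1.86, adjusted p = 0.355), without trend or robust settings (0.073) and without KO 1 (1.49, adjusted p = 0.630), Het 2 (0.065) or Het 3 (0.138). Mndal, a neighbour of Ifi203 picked out after its values were seen, had 30.5, 5.18, 21.0 and 15.5 in KO 1 to KO 4 and 8.97, 8.75, 6.86 and 11.3 in Het 1 to Het 4, and its KO 2 value was the lowest of all (log2 fold change 0.72 ± 0.50, limma adjusted p = 0.892). Ifi214, the gene of highest mean among the 10, averaged 22.7 ± 14.4 in KO and 17.6 ± 8.87 in Het (SD, n = 4 each). The 6 tested genes had a median of 0.42 under the deposited scaling and 0.26 with TMM scaling, against 0.05 and −0.12 over all tested genes. The filter shapes these medians too. Ifi202b and Mndal passed it through KO (means 32.7 and 18.0, against 7.41 and 8.98 in Het). With all 10 genes in DESeq2 the median was 0.34, against 0.06 over all genes.

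**Figure D4:**
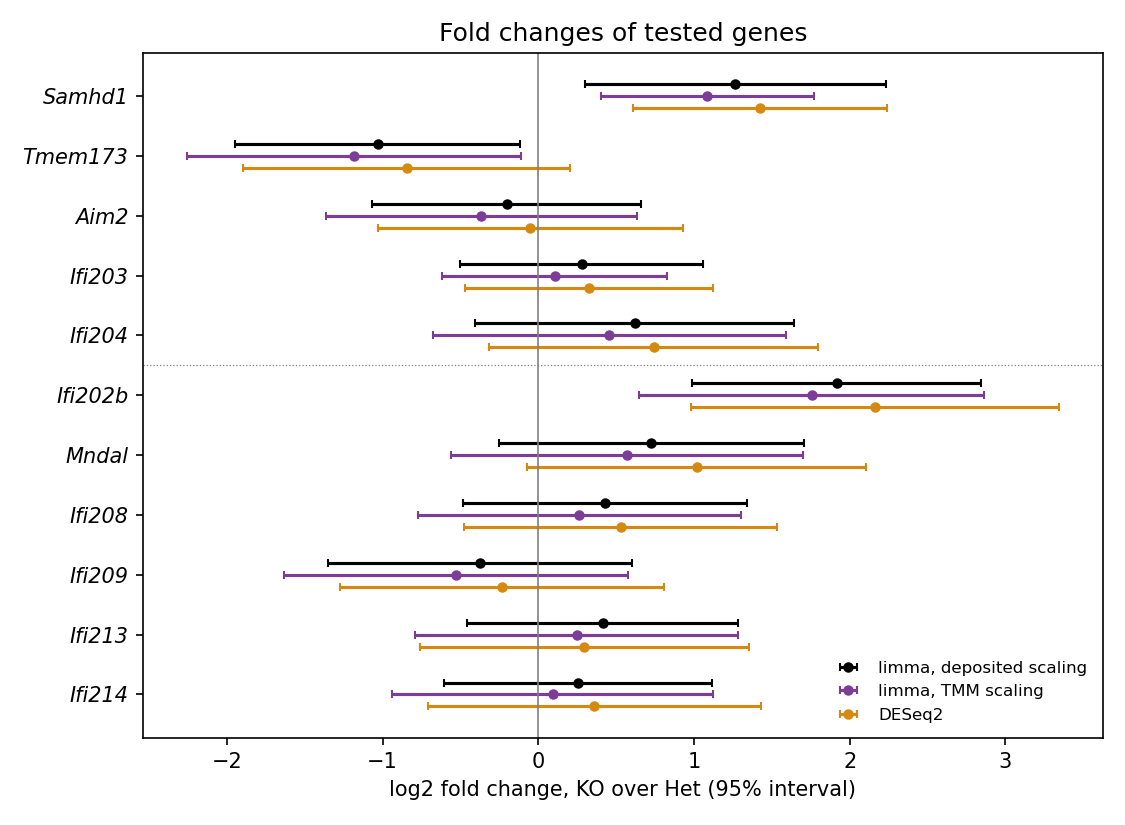
Log2 fold changes (KO over Het) of the 5 tested genes of the list (above the dotted line) and the 6 tested other IFI200 genes, with 95% intervals, from limma with deposited scaling (black), limma with TMM scaling (purple) and DESeq2 (orange). The intervals of Samhd1 and Ifi202b lie above 0 in all 3 fits, before any adjustment over genes.

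The cGAS-STING pathway had 0 of 30 members called in KO by limma, edgeR or DESeq2, with 1 higher and 0 lower at limma's unadjusted p under 0.05, where 4.05% of all genes pass higher. The 1 was Lrrc8a, named after its values were seen, a channel subunit that passes the cyclic dinucleotide between cells (log2 fold change 0.79, adjusted p = 0.735), and its groups overlapped. The median log2 fold change was 0.05, as it was over all tested genes. Its members of highest mean, the coatomer subunit Copa, which returns STING from the Golgi, and the cargo receptor Surf4, averaged 5172 ± 3806 and 2708 ± 1736 normalized counts in KO and 4382 ± 949 and 2473 ± 612 in Het (SD, n = 4 each). Cgas, which encodes the sensor, was picked out after its values were seen. It had 22.4, 11.6, 17.6 and 19.6 in KO 1 to KO 4 and 33.3, 27.5, 16.3 and 25.1 in Het 1 to Het 4. The groups overlapped (log2 fold change −0.49 ± 0.43, limma adjusted p = 0.919).

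Of 19 tested other DNA sensors and cofactors, 1 was called higher and 0 lower by limma, against 0.921% and 0.0233% of all tested genes. edgeR called the same number (0.708% of all genes) and DESeq2 called 0 (0.483%), giving no p-value for the gene that limma called. At limma's unadjusted p under 0.05 it was also the 1 member that passed, against 4.05% of all genes. It was Zbp1, whose protein binds nucleic acids in the left-handed Z form, at 1915, 360, 341 and 447 normalized counts in KO 1 to KO 4, against 26.9, 17.5, 13.7 and 23.5 in Het 1 to Het 4 (log2 fold change 4.78 ± 0.42). The RNA-binding proteins Hnrnpa2b1 and Nono, the members of highest mean, had log2 fold changes of 0.42 ± 0.64 and 0.42 ± 0.59 (limma adjusted p = 0.961 each). The list's median was 0.45, against 0.05 over all tested genes and 0.25 over those with a mean of 50 or more. With TMM scaling it was 0.275, against −0.12 over all tested genes.

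The AIM2 inflammasome and pyroptosis list had 0 of 14 tested members called by limma, and 0 by edgeR and DESeq2. At limma's unadjusted p under 0.05, 2 were higher, Gsdmd and Casp4, where 4.05% of all genes are. The list's median log2 fold change was −0.0056, against 0.05 over all tested genes, and 7 of the 14 were above 0. With TMM scaling the median was −0.17, against −0.12 over all tested genes. Gsdmd, Casp4, Pycard and Casp1 are named after their values were seen. Gsdmd, the pore-forming protein cut by inflammatory caspases, had 157, 90.6, 61.8 and 78.6 in KO 1 to KO 4, against 35.9, 55.0, 38.6 and 27.5 in Het 1 to Het 4. Its groups did not overlap, a separation seen in this direction for 2.19% of all tested genes. The log2 fold change was 1.24 ± 0.40 (limma adjusted p = 0.144), and the result turned on single libraries. Without KO 1 it was 0.98 (limma adjusted p = 0.886), without Het 4 1.09 (0.877), and without KO 3 1.42 (0.024), where 1.78% of all genes are called. Casp4, which encodes the caspase-11 of mice, had 161, 58.2, 33.1 and 22.6 in KO 1 to KO 4, against 24.3, 25, 20.6 and 30.8 in Het 1 to Het 4. KO 4 lay within the Het range (log2 fold change 1.02 ± 0.40, limma adjusted p = 0.409), and KO 1 was far above the rest. Without KO 1 the log2 fold change was 0.48 (limma adjusted p = 0.9998), and for KO 3 and KO 4 only 0.13 (0.871). The gene was called without KO 4 (1.41, limma adjusted p = 0.044), where 1.45% of all genes are called. Pycard, which encodes the adaptor ASC, had 33.2, 33.7, 48.5 and 23.2 in KO 1 to KO 4 and 14.1, 23.8, 23.1 and 23.5 in Het 1 to Het 4. Casp1, the caspase that AIM2 activates, was under the filter at 9.06 to 17 in KO and 2.57 to 11.3 in Het. The KO and Het values of Pycard overlapped, as did those of Casp1. The members of highest mean, Ninj1, which ruptures the dying cell's membrane, and the kinase Nek7, had log2 fold changes of 0.28 ± 0.55 and 0.33 ± 0.53 (limma adjusted p = 0.967 and 0.961).

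Of 20 tested nucleases and deoxynucleotide enzymes, 0 were called by limma, edgeR or DESeq2, with 1 higher and 1 lower at limma's unadjusted p under 0.05, where 4.05% and 2.7% of all genes pass. The higher was Pnpt1, at 1339, 739, 313 and 432 in KO 1 to KO 4 and 224, 268, 294 and 237 in Het 1 to Het 4. Its groups were separated, as in this direction were those of 2.19% of all tested genes. The log2 fold change of Pnpt1 was 1.25 ± 0.51 (limma adjusted p = 0.482). The lower was Tk1, the cytosolic thymidine kinase of dividing cells, named after its values were seen, at 7.17 to 23.2 in KO and 24.9 to 57.7 in Het. Pld3, a lysosomal exonuclease and with Pnpt1 the member of highest mean, averaged 524 ± 331 in KO and 479 ± 111 in Het (SD, n = 4 each).

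**Figure D5:**
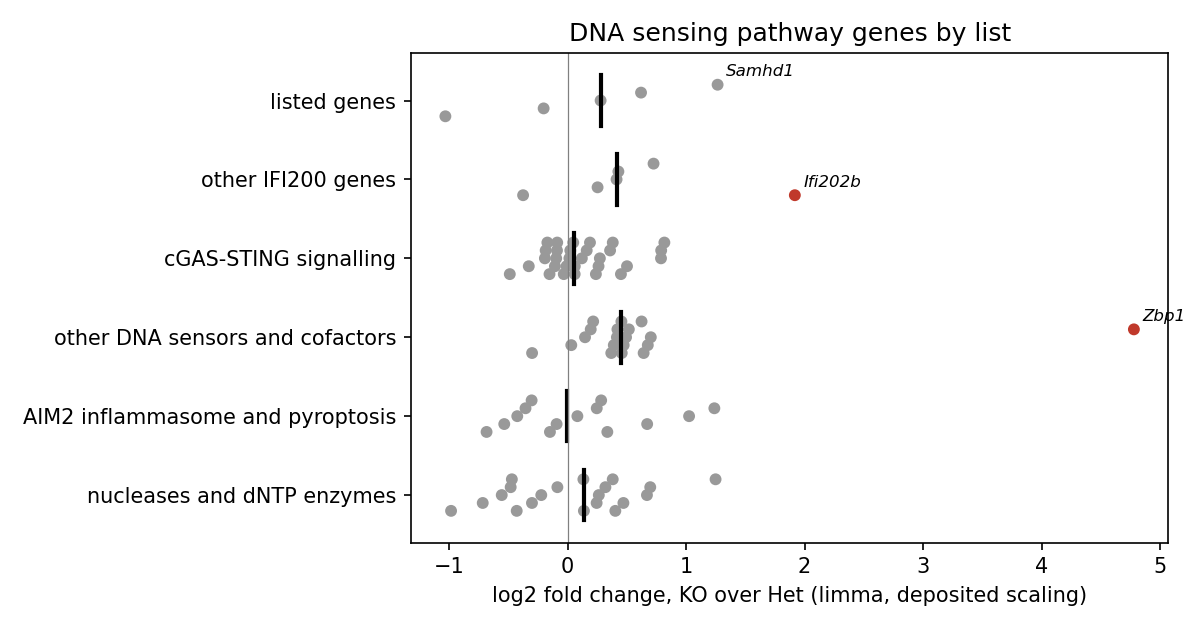
Log2 fold change (x axis, KO over Het, limma with deposited scaling) of each tested gene by list (rows), with red points for an adjusted p under 0.05, grey points for the rest and black bars at the medians. Ifi202b (1.92) and Zbp1 (4.78) are the 2 genes called, and Samhd1 (1.27) is the highest of the listed genes.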

How the data were processed

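Groups and replicate numbers of the 8 libraries come from their titles. The signal values in the authors' deposited table are read counts scaled by a size factor for each library. Every value (100%) was a whole multiple of its library's smallest step, to a tolerance of 0.001 of that step, so whole reads were recovered. Per the labels' protocols, a stranded total RNA kit for pico inputs was used. FastQC 0.11.8, STAR 2.7.3a, DESeq2 1.28.1, UMI-tools, HTSeq and mm10 are listed in the submitters' processing notes. How reads were assigned to genes, and with which annotation, is not given in the sources used here. Replicates differed by more than counting noise (chi-square per degree of freedom at least 3.15).

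limma 3.58.1 (R 4.3.3; eBayes, trend and robust) was run two-sided on log2(value + 1), with a mean of 10 or more required and genotype as the single term. This scale understates changes of low genes. Total degrees of freedom came to 129000, meaning that the test used the spread of genes of like level, not each gene's own. Intervals are per gene, unadjusted. edgeR 4.0.16 (quasi-likelihood, filterByExpr, TMM) and DESeq2 1.42.0 were run on the whole reads, and all were tested on simulated data. Coordinates and exon lengths are from GENCODE M21 (42961 symbols matched) and promoters from RefSeq. The genes and lists were chosen with earlier results of these data known. Beyond the listed genes, the text names the called members and the 2 most abundant of each pathway list and the nearest genes by profile, and says where it names others. Alternatives covered pseudocounts, filters, scalings, weights, tests, a replicate block and subsets of libraries.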

Additional observations from a re-analysis of the deposited data

Results flagged for a closer look

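Zbp1 in KO held 1 library far from the others: KO 1 stood at 1915 normalized counts and the other 3 KO libraries at 341 to 447, so that the gap was 0.933 of the group's range, past the Dixon limit for 4 values. This was 1 of 16 groups examined, and chance takes about 1 of 20 groups past that limit. All 4 KO values lay above the highest Het value, 26.9.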

How the results depend on the processing

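Of the listed genes, 0 were called higher and 0 lower under the deposited scaling with limma. Samhd1 was the 1 gene called higher with quantile normalization (0.97, adjusted p = 0.042), with TMM factors from genes of mean 200 or more (1.02), with DESeq2 (1.42), with KO 1 and KO 2 only (1.85) and with libraries of both sexes only (1.76), all log2 fold changes. Leaving out each library gave 0 to 1 called higher (1 without KO 3) and 0 to 0 lower, and 0.94 to 1.58 for Samhd1. The 1 gene called lower was Tmem173, in the fits of KO 1 and KO 2 only (−1.89) and of libraries with both sexes only (−1.74), against −0.18 with KO 3 and KO 4 only and −1.34 to −0.72 leaving out each library. The sign of Aim2 turned with quantile normalization (0.072), with KO 3 and KO 4 only (0.48) and without KO 1 (0.10, range −0.47 to 0.10). The cause was not tested.

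All genes called numbered 203. There were 458 with quantile normalization, 688 with TMM factors from genes of mean 200 or more, 128 without trend or robust settings, 13238 with KO 1 and KO 2 only, 1875 with KO 3 and KO 4 only, 10849 with libraries of both sexes only, and 111 to 382 leaving out each library (111 without KO 1, 382 without KO 3, 311 without KO 4, 130 without Het 1). Listed pathway genes called numbered 2. There was 1 with TMM scaling, a mean of at least 50, no trend or robust settings, edgeR or DESeq2. There were 4 with TMM factors from genes of mean 200 or more, 64 with KO 1 and KO 2 only, 11 with KO 3 and KO 4 only, 56 with libraries of both sexes only, and 1 to 3 leaving out each library. Titles number the replicates 1 to 4 in both groups. Same-numbered libraries deviated together in 2 of 4 pairs (r = −0.28, 0.26, −0.55 and 0.62). With every Het library, KO 1 and KO 2 had the opposite sign to KO 3 and KO 4. These correlations follow that split and cannot show whether same-numbered libraries were paired. With the replicate block, 187 genes and 0 of the listed genes were called, and Samhd1 stood at 1.27 (adjusted p = 0.582). At this depth Ifi205, with 57 reads over all libraries, was under the filter and not tested.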
